A study of Homo sapiens with 4 samples.

Results

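The 10 genes described here encode immediate-early transcription factors: EGR1, EGR2, EGR3, FOS, FOSB, FOSL1, JUN, JUNB, NR4A1 and NR4A2. They were picked by symbol, with earlier results of these data known, and each had 1 row among the 26255 gene symbols of the deposited tables. RNA was measured in 4 groups of 1 library each: PSN-1 cells transfected with a mimic, a synthetic copy, of the microRNA miR-4800-3p (labelled miR-4800-3p OE), PSN-1 cells given a scrambled oligonucleotide as negative control, MIA PaCa-2 cells given the same mimic, and MIA PaCa-2 cells given the scramble. Both are human epithelial lines from pancreatic tumours, per the labels, and all 4 groups were transfected. The dose, the time after transfection and the number of cultures behind a library are not stated in the labels. The study searched for targets of this microRNA among messenger RNAs. Values are FPKM, by definition fragments normalized to transcript length and to the mapped total of the library, so levels can be compared between genes. The sources used here do not give the total used or any further scaling. With a single library in each group no test was possible inside a line, and a difference between mimic and scramble cannot be told apart from a difference between 2 cultures. In such bulk RNA, a change in some of the cells and a smaller change in all of them cannot be told apart either.

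Immediate-early genes are switched on within minutes of a growth factor, stress or adhesion signal, without new protein synthesis. Kinases of the ERK, JNK and p38 pathways act on factors that are already present, among them SRF with its ELK partners and CREB, and the messenger RNAs that result are short-lived. FOS and JUN proteins pair through leucine zippers into AP-1, EGR proteins are zinc finger factors that bind GC-rich DNA, and NR4A proteins are orphan nuclear receptors. In pancreatic tumour cells, where signalling from RAS to ERK is often active, EGR1 and FOSL1 are known as outputs of that pathway.

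The sequence of the transfected microRNA is shown because the seed, bases 2 to 8, in capitals, decides which messenger RNAs can pair with it.
hsa-miR-4800-3p: cAUCCGUCcgucuguccac
The gene of this microRNA lies on chromosome 4, and the mature sequence at chr4:2250091-2250109 on the minus strand (GRCh38.p14, RefSeq). No member had a match to the seed, GACGGAT or ACGGATA, in its longest annotated 3' UTR (0 of 10), while 281 of 11173 genes averaging at least 1 FPKM had one (2.51%). Another feature of these 3' UTRs was the AU-rich pentamer ATTTA, known from unstable messenger RNAs. It was present in 10 of 10 members and in 73.2% of the 11173 genes, and the longer TATTTAT in 5 of 10 members and in 35.5% of those genes. FOS had 5 ATTTA pentamers in 806 bases, and NR4A2 had 4 in 1312 bases. Counts of ATTTA follow the length of the 3' UTR, and per kb the median was 1.99 in the members and 1.65 in the 11173 genes.

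RefSeq promoters were found for EGR1, EGR2, FOS, FOSB, JUN, JUNB and NR4A1, 7 of the 10 members. The 250 bases before 1 annotated start per gene were searched. Any other start was not searched, and EGR2 and NR4A1 have 4 and 13 annotated coding transcripts. Within these 250 bases a CArG box, the DNA element bound by SRF, was present only in EGR1 among the 7, and in 1.14% of 27305 promoters. EGR1 had 2 copies, at -105 to -96 and -83 to -74. Bases farther upstream were not searched, so the other members may hold a CArG box there. Only its strict form, CC and GG around a fixed run of A or T bases, was searched. Variants of it within the 250 bases would be missed. The half-site of the cyclic AMP response element, TGACG on either strand, was present in 5 of 7, against 21.7% of the 27305. EGR1, FOS and FOSB each had a half-site at a similar distance, at -66 to -62, -64 to -60 and -60 to -56, and EGR1 had another at -135 to -131. JUN and JUNB had theirs farther from the start, at -123 to -119 and -137 to -133. A TATA box, TATAAA on the plus strand, was present in FOS, FOSB and JUNB at -33 to -28, -30 to -25 and -31 to -26, and in 7.17% of the 27305. The full element TGACGTCA, the AP-1 site TGACTCA, the EGR sites GCGTGGGCG and GCGGGGGCG and the NR4A element AAAGGTCA, each searched on both strands, had no match in the 7 members, and were present in 1.77%, 4.16%, 5.30% and 1.05% of the 27305 promoters. The TGACG search also finds TGACGTCA. For the full element and the AP-1, EGR and NR4A sites only the exact letters given were searched, so sites with variant letters would be missed. A match describes letters only, and whether a factor binds there was not measured. These 4 promoters are shown because they hold the CArG boxes and TATA boxes named here, with CArG boxes, TGACG half-sites and TATA boxes in capitals, 5′ to 3′, from chr5:138465229-138465478 (+ strand), chr14:75278578-75278827 (+ strand), chr19:45467746-45467995 (+ strand) and chr19:12791236-12791485 (+ strand) in GRCh38.p14.
EGR1: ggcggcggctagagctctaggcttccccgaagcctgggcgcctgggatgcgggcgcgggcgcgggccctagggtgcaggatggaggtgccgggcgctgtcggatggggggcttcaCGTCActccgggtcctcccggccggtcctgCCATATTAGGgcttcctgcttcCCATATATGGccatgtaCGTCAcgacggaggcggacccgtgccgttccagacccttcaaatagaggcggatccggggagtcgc
FOS: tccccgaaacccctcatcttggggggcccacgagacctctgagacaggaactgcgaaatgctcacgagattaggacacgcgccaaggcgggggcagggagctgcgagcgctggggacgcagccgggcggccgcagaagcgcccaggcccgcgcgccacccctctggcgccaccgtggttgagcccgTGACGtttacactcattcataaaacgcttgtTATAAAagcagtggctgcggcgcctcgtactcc
FOSB: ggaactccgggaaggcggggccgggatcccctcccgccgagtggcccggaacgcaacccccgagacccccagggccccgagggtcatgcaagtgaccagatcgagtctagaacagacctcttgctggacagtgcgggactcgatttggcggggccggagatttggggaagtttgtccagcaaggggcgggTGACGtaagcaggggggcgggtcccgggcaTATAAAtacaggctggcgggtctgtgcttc
JUNB: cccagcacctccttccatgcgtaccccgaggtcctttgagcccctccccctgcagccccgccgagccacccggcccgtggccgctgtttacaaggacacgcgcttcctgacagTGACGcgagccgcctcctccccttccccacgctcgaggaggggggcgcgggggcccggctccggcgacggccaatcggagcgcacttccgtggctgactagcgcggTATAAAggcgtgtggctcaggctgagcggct

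**Figure D1:**
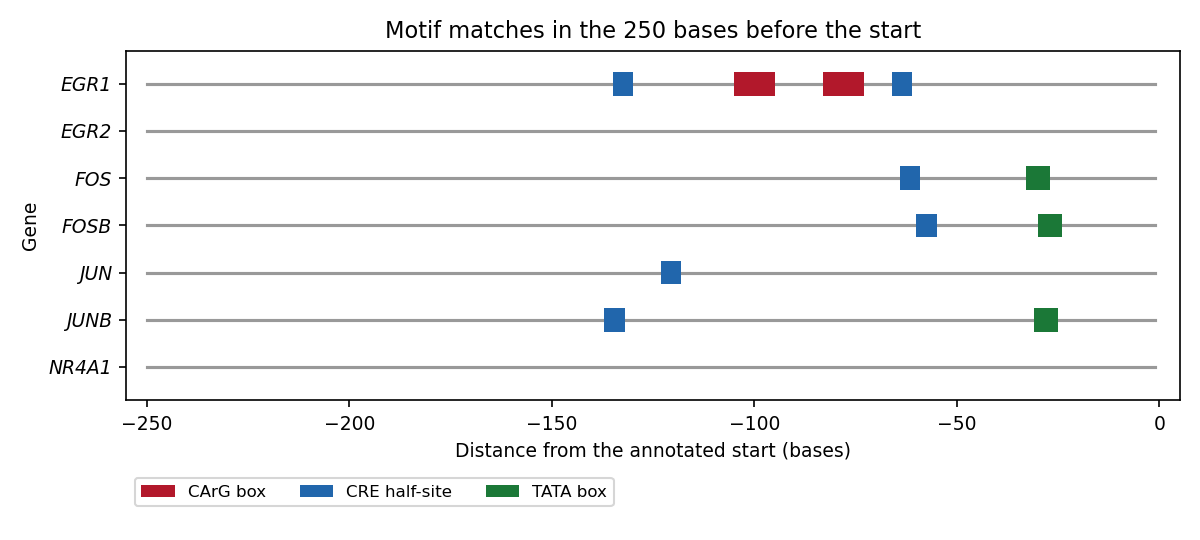
Motif matches in the 250 bases before the annotated start of the 7 members with a RefSeq promoter, with the distance from the start in bases on the horizontal axis and 1 line per gene. EGR1 holds both CArG boxes, FOS, FOSB and EGR1 each have a half-site between -66 and -56, and EGR1 has another at -135 to -131. The half-sites of JUN and JUNB lie at -123 to -119 and -137 to -133. EGR2 and NR4A1 hold none of the 3 motifs drawn before the 1 start searched, and other starts were not searched.

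The summed FPKM per library was 488575 to 510908, and 15699 to 17294 symbols were above 0. From the smallest steps between low values, each FPKM was put at 12.6 to 15.9 fragments per kb of transcript, which puts 33.4 (NR4A2, MIA PaCa-2 scramble) to 81616 fragments (JUN, MIA PaCa-2 mimic) behind a member's value. The counting errors given below rest on that estimate and leave out any spread between cultures. Among the epithelial genes, KRT8, KRT18 and KRT19 were between 78.2 and 923 FPKM in all 4 libraries. KRT7 was at 287 and 406 FPKM in the PSN-1 mimic and scramble libraries and listed at 0 in both MIA PaCa-2 libraries. EPCAM was at 28.4 and 24.1 FPKM in the PSN-1 mimic and scramble libraries, and at 0.139 and 0.104 FPKM in those of MIA PaCa-2. CDH1 was at most 1.51 FPKM in any library. Among the mesenchymal genes, VIM was at 1144 to 4401 FPKM, ZEB1 at 19.8 to 30.5 FPKM and CDH2 at most 0.0514 FPKM. Of 6 leukocyte genes, CD3E and MS4A1 were listed at 0 in all 4 libraries and PTPRC was at most 0.433 FPKM, but the myeloid genes CD14 and LYZ were at 2.38 to 4.95 FPKM in PSN-1 and at most 0.876 FPKM in MIA PaCa-2, and CD68 was at 20.1 to 38.7 FPKM in all 4. The sum of the 6 was 44.2 and 43.7 FPKM in the PSN-1 mimic and scramble libraries, and 35.9 and 21.2 FPKM in the MIA PaCa-2 mimic and scramble libraries, and its part in the results was not tested. The 7 fibroblast and stellate cell genes summed to 80.6 and 99.1 FPKM in PSN-1 with mimic and scramble. In MIA PaCa-2 they summed to 67.3 and 84.9 FPKM. The 4 acinar genes summed to 17.7 and 21.4 FPKM in PSN-1 and at most 0.105 FPKM in MIA PaCa-2. The 4 endothelial genes summed to 7.99 and 7.16 FPKM in PSN-1 and at most 0.0273 FPKM in MIA PaCa-2. The part of these genes in the results was not tested either.

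The members differed widely in level. EGR1, FOS and JUN ranked between 37 and 155 among all genes in each of the 4 libraries, while NR4A2 ranked 11353 of 15699 genes above 0 in the MIA PaCa-2 mimic library and 11777 of 15747 in the MIA PaCa-2 scramble library. Together they took 0.827% of the summed FPKM in the PSN-1 mimic library and 0.448% in the PSN-1 scramble library, and 0.697% in the MIA PaCa-2 mimic library and 0.571% in the MIA PaCa-2 scramble library. In the PSN-1 scramble library the order by level was EGR1, FOS, JUN, JUNB, FOSL1, FOSB, EGR2, NR4A1, EGR3 and NR4A2, and FOS, JUN and JUNB (411, 400 and 399.6 FPKM) were close together. In the MIA PaCa-2 scramble library the order was JUN, EGR1, FOS, JUNB, FOSL1, NR4A1, FOSB, EGR3, EGR2 and NR4A2. EGR1 and FOS (696 and 687 FPKM) were neighbours there, as were JUNB and FOSL1 (59.5 and 57.8 FPKM), and single libraries give no spread by which to separate them. EGR1 ranked 52 among all genes in the PSN-1 mimic library and 94 in the PSN-1 scramble library, while JUN ranked 37 in the MIA PaCa-2 mimic library and 60 in the MIA PaCa-2 scramble library.

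**Figure D2:**
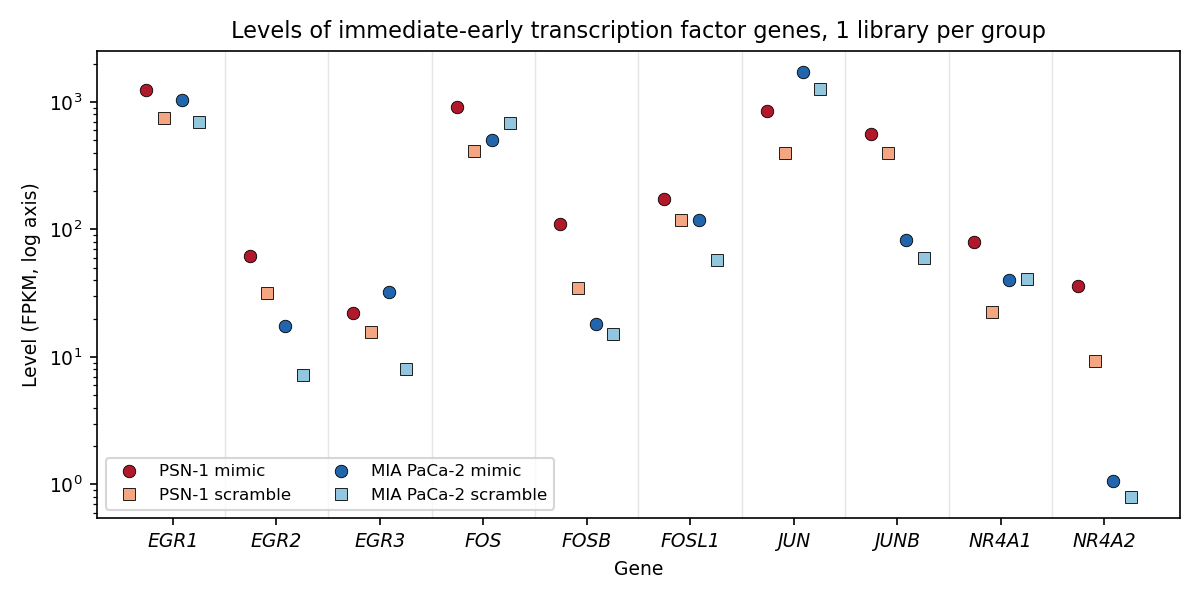
Level of each member in FPKM on a log axis, 1 point per library, with PSN-1 mimic, PSN-1 scramble, MIA PaCa-2 mimic and MIA PaCa-2 scramble from left to right within each gene. NR4A2 is near 1 FPKM in both MIA PaCa-2 libraries and at 36.3 and 9.30 FPKM in the PSN-1 mimic and scramble libraries, and JUN is the member that is lower in PSN-1 than in MIA PaCa-2 in every library.

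With the mimic, all 10 members were higher in PSN-1 (47.6% of all measured genes), and 7 of the 9 measured members were higher in MIA PaCa-2 (52.2% of all). A gene counted as measured if it averaged 1 FPKM or more over a line's 2 libraries, which NR4A2 missed in MIA PaCa-2 (mean 0.929 FPKM). A change here is the log2 ratio of mimic to scramble after 1 FPKM was added to both, which makes changes of low genes look smaller than they were. In PSN-1 the members' changes ran from 0.48 to 1.86 with a median of 1.02, where the median of 12233 genes was -0.016. FOS, FOSB, JUN, NR4A1 and NR4A2 were higher past 2-fold, 5 of 10, where 0.850% of all measured genes were, and no member was lower past 2-fold (0.777% of all). In MIA PaCa-2 the changes ran from -0.44 to 1.88 with a median of 0.46, where the median of 11484 genes was 0.014. EGR2, EGR3 and FOSL1 were higher past 2-fold, 3 of 9, where 1.31% of all measured genes were, and none was lower past 2-fold (0.810% of all). Past 1.5-fold, 7 of 10 were higher in PSN-1 (3.17% of all) and 3 of 9 in MIA PaCa-2 (5.43% of all). As the members were chosen with earlier results of these data known, the shares of all genes are given for scale and test nothing. No member passed 2-fold in both lines. EGR2 came closest, with 0.97 for PSN-1 and 1.19 for MIA PaCa-2. The members least far past 2-fold were JUN in PSN-1 (1.07) and FOSL1 in MIA PaCa-2 (1.04, and 0.99 with libraries scaled to the same summed FPKM).

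**Figure D3:**
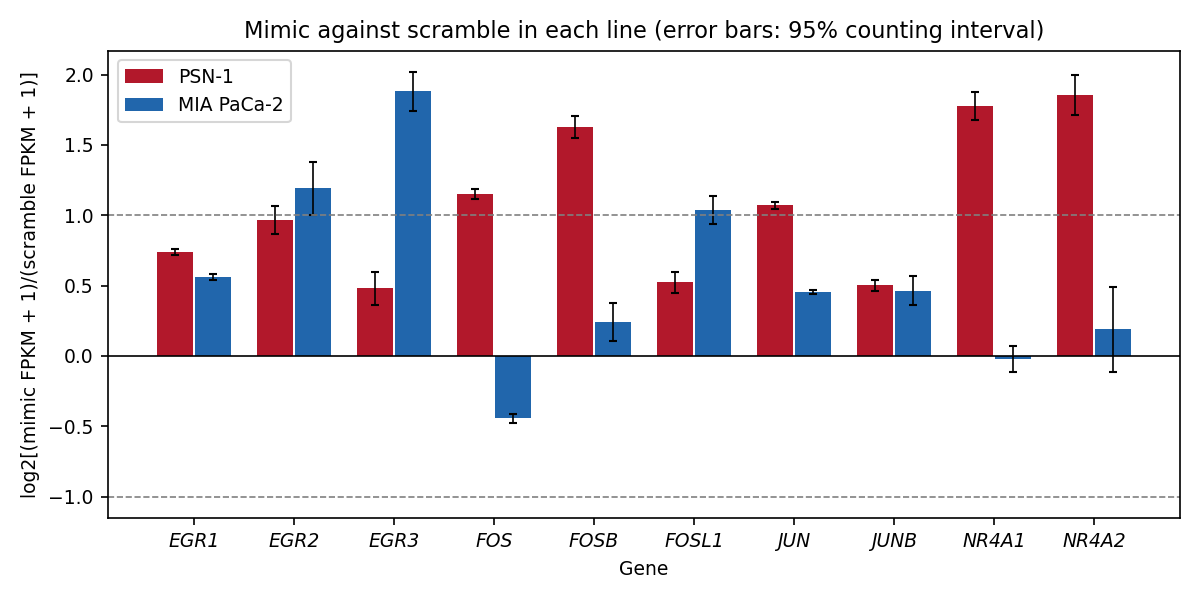
Change of each member with the mimic in PSN-1 (left bar) and MIA PaCa-2 (right bar) on the log2(FPKM + 1) scale, with error bars of 1.96 counting SE (a 95% counting interval) from estimated fragments and dashed lines at 2-fold. The PSN-1 bars of FOS, FOSB, JUN, NR4A1 and NR4A2 and the MIA PaCa-2 bars of EGR2, EGR3 and FOSL1 pass the upper line, and the MIA PaCa-2 bar of FOS is at -0.44.

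The EGR genes were higher with the mimic in both lines. EGR1, the most abundant of them, was at 1247 FPKM in the PSN-1 mimic library against 747 FPKM in the scramble library, and at 1028 (mimic) against 696 FPKM (scramble) in MIA PaCa-2. Both mimic libraries thus lay above both scramble libraries, with changes of 0.74 (counting SE 0.011) and 0.56 (0.011), a relation found in 6.88% of 10678 genes measured in both lines and in EGR1 and EGR3, 2 of the 9 members. EGR2, a factor known from myelin formation, was at 62.4 FPKM in the PSN-1 mimic library against 31.5 FPKM in the scramble library. In MIA PaCa-2 it was at 17.6 FPKM in the mimic library against 7.17 FPKM in the scramble library, so that its changes were 0.97 (counting SE 0.050) and 1.19 (0.095). EGR2 was higher in PSN-1 than in MIA PaCa-2 with either oligonucleotide, and the lines did not overlap. EGR3, known from muscle spindle development, was at 22.2 FPKM in the PSN-1 mimic library against 15.7 FPKM in the scramble library, and at 32.1 (mimic) against 7.98 FPKM (scramble) in MIA PaCa-2. Its change in PSN-1 was 0.48 (counting SE 0.060) and ranked 638 from the highest of 12233 genes, while that in MIA PaCa-2 was 1.88 (0.070), ranked 37 of 11484 and was the highest of any member there. In limma with the line as a block, on all 4 libraries, EGR1 had a mean change of 0.65 (SE 0.073, adjusted p = 0.0912), EGR2 of 1.08 (SE 0.14, adjusted p = 0.119) and EGR3 of 1.18 (SE 0.32, adjusted p = 0.348). EGR1 passed in limma with median-ratio scaling (adjusted p = 0.0247) and with short non-coding genes left out (adjusted p = 0.0468), and EGR2 with median-ratio scaling (adjusted p = 0.0347). Of the 8 alternatives run, EGR1 was called in 2, EGR2 in 1 and EGR3 in 0. With median-ratio scaling 27 of 10677 genes were called higher and 21 lower, and without short non-coding genes 5 and 5 of 10624. In limma the adjusted p was 0.393 (EGR1) and 0.268 (EGR2) without the trend, and 0.930 for both without the filter. Without the line block limma gave an adjusted p of 0.99994 for both.

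The FOS genes had changes of unlike size in the 2 lines, and for FOS of unlike sign. FOS itself, the partner of JUN in the classical AP-1 dimer, was at 913 FPKM in the PSN-1 mimic library against 411 FPKM in the scramble library, and at 505 (mimic) against 687 FPKM (scramble) in MIA PaCa-2. Its changes were 1.15 (counting SE 0.017) and -0.44 (0.016), the only member with a negative change larger than its counting error. FOSB, a close relative of FOS, was at 110 FPKM in the PSN-1 mimic library against 34.9 FPKM in the scramble library. In MIA PaCa-2 it was at 18.0 (mimic) against 15.0 FPKM (scramble), which gives changes of 1.63 (counting SE 0.040) and 0.24 (0.069). FOSL1, which encodes FRA-1, an AP-1 subunit without the strong activation domain of FOS, showed the other order, at 172 (mimic) against 119.6 FPKM (scramble) in PSN-1 (0.52) and 119.6 (mimic) against 57.8 FPKM (scramble) in MIA PaCa-2 (1.04). The difference of change between the lines, PSN-1 minus MIA PaCa-2, was 1.59 for FOS, 1.38 for FOSB and -0.51 for FOSL1, and with 1 library per group it was not tested. In limma none of the 3 was called for the effect shared by both lines (adjusted p = 0.803, 0.438 and 0.208 for FOS, FOSB and FOSL1).

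The JUN genes were higher with the mimic in both lines, past 2-fold for JUN in PSN-1 alone. JUN, the AP-1 subunit that can also pair with itself, was at 842 FPKM in the PSN-1 mimic library against 400 FPKM in the scramble library, and at 1719 (mimic) against 1256 FPKM (scramble) in MIA PaCa-2. Its changes were 1.07 (counting SE 0.013) and 0.45 (0.0080), and both PSN-1 libraries lay below both MIA PaCa-2 libraries. JUNB, a weaker activator than JUN in many settings, was at 566 (mimic) against 399.6 FPKM (scramble) in PSN-1 and at 82.4 (mimic) against 59.5 FPKM (scramble) in MIA PaCa-2. The 2 changes of JUNB were close, 0.50 (counting SE 0.020) and 0.46 (0.052), at levels that differed far more between the lines than between the oligonucleotides. In limma for the shared effect, JUN had a mean change of 0.76 (SE 0.14) and JUNB of 0.48 (SE 0.090), with an adjusted p of 0.208 for each.

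Among all JUN family genes, JUND included, JUN took 54.3% of the summed FPKM in the PSN-1 mimic library and 46.5% in the PSN-1 scramble library, against 89.0% and 90.4% in the MIA PaCa-2 mimic and scramble libraries. JUNB took 36.5% and 46.5% in the PSN-1 mimic and scramble libraries, against 4.26% and 4.28% in those of MIA PaCa-2. PSN-1 thus held nearly equal JUN and JUNB with the scramble, and MIA PaCa-2 mainly JUN. Of the FOS family with FOSL2, FOS took 69.5% and 60.9% in the PSN-1 mimic and scramble libraries, and 69.1% and 81.9% in the MIA PaCa-2 mimic and scramble libraries. FOSL1 took 13.1% and 17.7% in PSN-1 with mimic and scramble, and 16.4% and 6.89% in MIA PaCa-2. These are shares of messenger RNA, and protein was not measured.

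**Figure D4:**
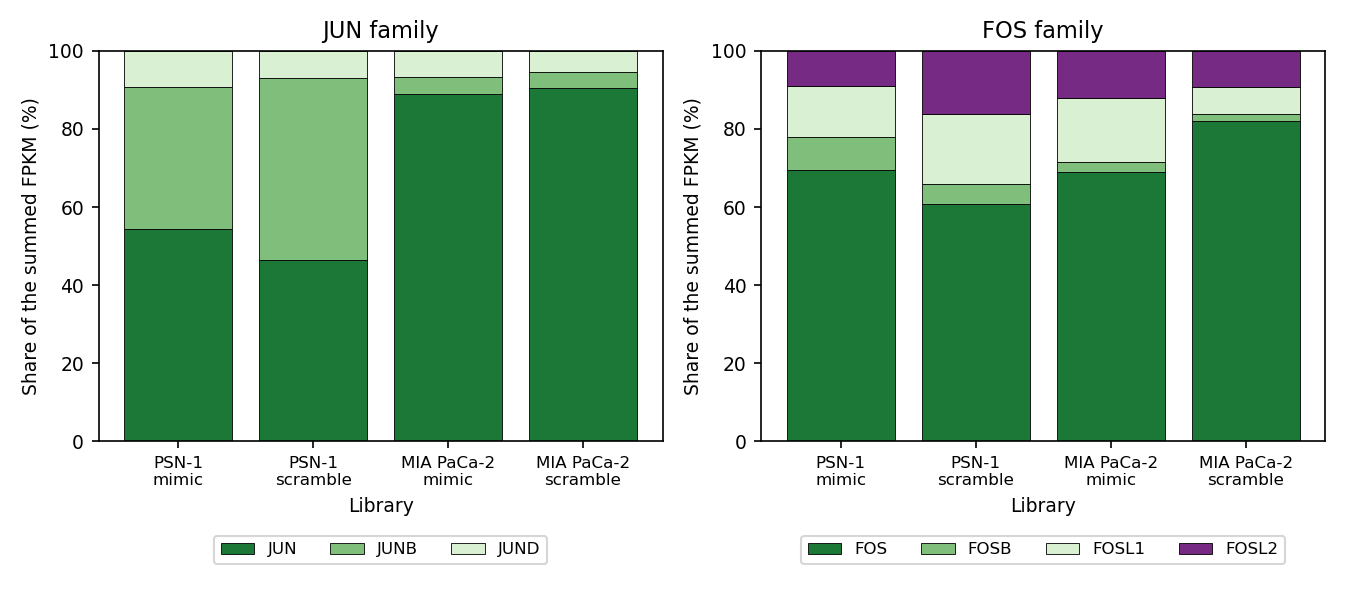
Share of each gene in the summed FPKM of the JUN family (left) and the FOS family (right), as stacked bars in percent, 1 bar per library. JUNB takes 36.5% and 46.5% of the JUN family in the PSN-1 libraries and about 4% in those of MIA PaCa-2.

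The NR4A genes had the largest changes of the members in PSN-1 and no such change in MIA PaCa-2. NR4A1 (NUR77), an orphan nuclear receptor, was at 79.5 FPKM in the PSN-1 mimic library against 22.5 FPKM in the scramble library, and at 40.3 (mimic) against 40.8 FPKM (scramble) in MIA PaCa-2. Its changes were 1.77 (counting SE 0.050) and -0.019 (0.047), so the mimic and scramble libraries of MIA PaCa-2 lay between those of PSN-1. NR4A2 (NURR1), known from dopamine neurons, was at 36.3 (mimic) against 9.30 FPKM (scramble) in PSN-1, a change of 1.86 (counting SE 0.074) that ranked 35 from the highest of 12233 genes. In MIA PaCa-2 it was at 1.06 FPKM in the mimic library and 0.803 FPKM in the scramble library, about 49.1 and 33.4 fragments, which gives 0.19 with a counting SE of 0.15. The third family gene, NR4A3, was at 4.16 FPKM in the PSN-1 mimic library against 1.16 FPKM in the scramble library (1.26), and at 0.971 (mimic) against 1.22 FPKM (scramble) in MIA PaCa-2 (-0.17). In limma for the shared effect NR4A1 had a mean change of 0.88 (SE 0.39, adjusted p = 0.545), and NR4A2 was not fitted because of its level in MIA PaCa-2.

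Over both lines, limma called 6 of 10678 genes higher with the mimic (0.0562%) and 1 lower (0.00937%) at an adjusted p under 0.05, and 0 of the 9 members fitted. That fit has 1 residual degree of freedom. Its error for a gene starts from the disagreement of the lines and is drawn toward a value shared with genes of similar level. Of the 9, EGR1, EGR2, EGR3, FOSB, FOSL1, JUN and JUNB, 7 in all, were higher in both lines, as were 28.1% of the 10678 genes. FOS and NR4A1 had opposite signs in the 2 lines.

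**Figure D5:**
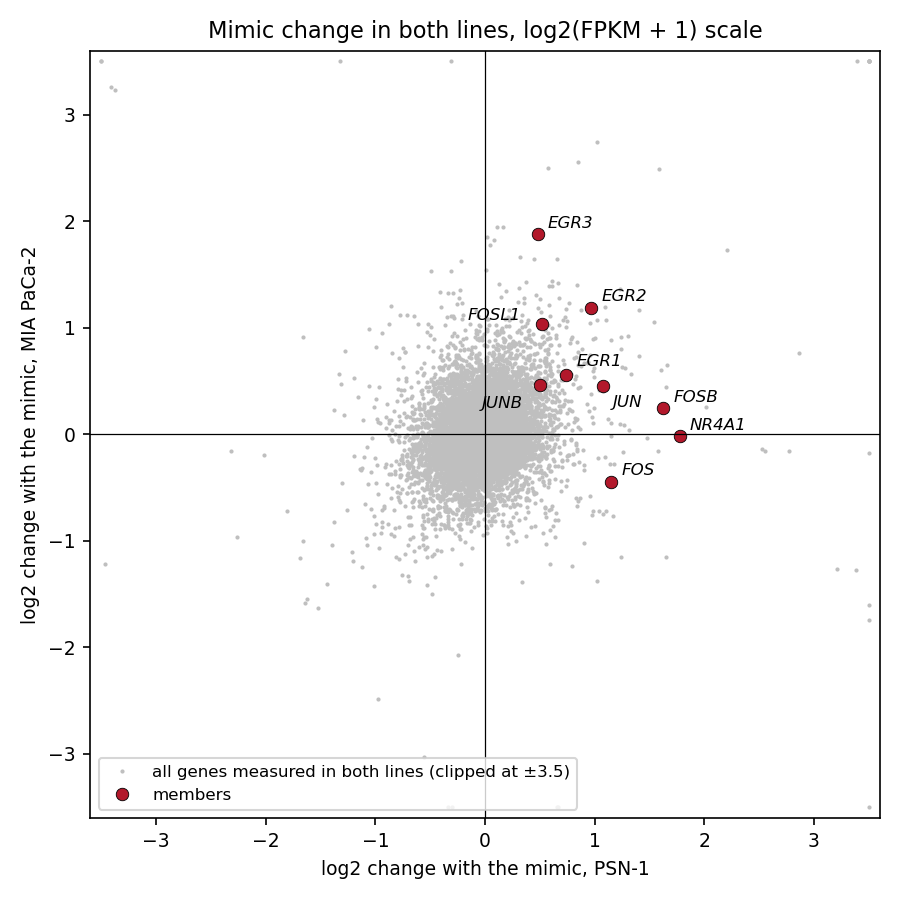
Change with the mimic in PSN-1 (horizontal) against that in MIA PaCa-2 (vertical) on the log2(FPKM + 1) scale, for 10678 genes measured in both lines (grey) and the 9 members among them (red). All 9 lie right of the vertical line, EGR3 is the highest member, and FOS lies below the horizontal line.

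Over all genes, PSN-1 changes fell with 3' UTR GC content (Spearman correlation -0.219 over 11065 genes, which are not independent), with -0.012 in MIA PaCa-2. The members' 3' UTRs had 34.5% to 54.9% GC. With this trend subtracted, an alternative added after the data were seen, the members' changes in PSN-1 were 0.48 to 1.82, and the same 5 were past 2-fold.

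Between the lines, JUNB, NR4A2, EGR2, FOSB and FOSL1 were higher in PSN-1 and JUN was lower. In limma on all 4 libraries with the oligonucleotide as a block, the level in PSN-1 over that in MIA PaCa-2 on the log2 scale was 2.75 for JUNB (SE 0.087, adjusted p = 8.88e-05), 3.35 for NR4A2 (SE 0.40, adjusted p = 0.00208), 1.88 for EGR2 (SE 0.14, adjusted p = 0.000474), 1.85 for FOSB (SE 0.33, adjusted p = 0.00723), 0.78 for FOSL1 (SE 0.15, adjusted p = 0.00905) and -1.34 for JUN (SE 0.15, adjusted p = 0.00169). NR4A2 averaged 0.929 FPKM in MIA PaCa-2 and passed the filter over 4 libraries only through PSN-1 (mean 22.8 FPKM). Its difference depends on the pseudocount, 4.18 with 0.1 in place of 1. Without the oligonucleotide block FOSL1 was no longer called (adjusted p = 0.144), and without the filter on low values none of the 6 was (adjusted p = 0.0843 to 0.249 in limma). Such calls were common: 29.2% of 12423 genes were called higher in PSN-1 and 27.3% lower, against 5 and 1 of the 10 members. Both PSN-1 libraries lay above both MIA PaCa-2 libraries for the same 5 members (40.0% of all genes) and below them for JUN (39.0%). The libraries of a line differ in treatment and are not replicates, so the p-values do not cover the spread between cultures. Leaving out 1 library at a time, without the block and with the lone library of a line assumed to vary like the others, limma called JUNB each time (adjusted p = 0.0112 to 0.0474). NR4A2 was lost without the MIA PaCa-2 mimic (adjusted p = 0.0668) or scramble library (0.0757), and EGR2 was called only without the MIA PaCa-2 mimic library (0.0392). FOSB was then called only without the PSN-1 scramble library (adjusted p = 0.0256), FOSL1 only without the MIA PaCa-2 mimic library (0.0442), and JUN in none of the 4 (0.0638 to 0.186 in limma).

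EGR1, EGR3, FOS and NR4A1 overlapped between the lines. FOS was 0.85 higher in PSN-1 than in MIA PaCa-2 among the mimic libraries and 0.74 lower among the scramble libraries (difference -0.74), and NR4A1 was 0.96 higher with the mimic and lower with the scramble (difference -0.83). EGR3 had the opposite pattern, at -0.51 among the mimic libraries and 0.89 among the scramble libraries. For EGR1 the differences were 0.28 and 0.10. In limma these 4 genes had adjusted p-values from 0.0767 (EGR1) to 0.905 (FOS). With no block, NR4A1 was lower in PSN-1 without the PSN-1 mimic library (-0.82) and higher without the PSN-1 scramble library (0.95). Each such fit left 1 PSN-1 library, so its oligonucleotide is mixed with the line. The gene's own spread then came only from the MIA PaCa-2 mimic and scramble libraries.

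The pattern of the members over the 4 libraries was closest to that of ZFP36, which encodes tristetraprolin, a protein that binds AU-rich messenger RNAs and is itself induced as an immediate-early gene. Likeness was the Euclidean distance between log2(FPKM + 1) values centred over the 4 libraries, to the mean profile of the 10 members, among 9223 other genes that averaged 5 FPKM or more. ZFP36 was at a distance of 0.22, with 183 FPKM in the PSN-1 mimic library against 95.5 FPKM in the scramble library and 71.4 (mimic) against 58.6 FPKM (scramble) in MIA PaCa-2. MSANTD3-TMEFF1 (0.31), OXCT1 (0.33), RABGGTB (0.33) and SNHG3 (0.37) followed. Of the members, FOSL1 was nearest to the mean profile (0.55) and NR4A2 farthest (2.45), so each member lay farther from the mean profile than these 5 genes.

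Of all measured genes, 47.6% were higher with the mimic in PSN-1 and 52.2% in MIA PaCa-2, and 0.850% and 1.31% were higher past 2-fold. Of other immediate-early response genes, 21 of 40 were higher with the mimic in PSN-1 and 30 of 38 in MIA PaCa-2. In PSN-1 5 were higher past 2-fold and none lower, with a list median of 0.064, where the median of all genes was -0.016. GEM, a small GTP-binding protein gene, was at 199 (mimic) against 62.9 FPKM (scramble), a change of 1.65, and ARC, known from synapses, at 5.84 (mimic) against 1.58 FPKM (scramble), a change of 1.41. DUSP1, a phosphatase of MAP kinases, had a change of 1.28 in PSN-1 and TNFAIP3, an inhibitor of NF-kB signalling, of 1.26. GEM, ARC, DUSP1 and TNFAIP3 had changes of 0.45, 0.73, 0.62 and 0.085 in MIA PaCa-2. Of the list, 6 were higher past 2-fold in MIA PaCa-2 and none lower, with a list median of 0.48, where the median of all genes was 0.014. HBEGF, a ligand of the EGF receptor, was at 180 (mimic) against 56.9 FPKM (scramble), a change of 1.65, and KLF2, a zinc finger factor, at 52.5 (mimic) against 20.2 FPKM (scramble), a change of 1.34. The change of HBEGF in PSN-1 was 0.44. ZFP36L1, a relative of ZFP36, had a change of -0.86 in PSN-1 and 1.20 in MIA PaCa-2. KLF2 (-0.41) and the pseudokinase gene TRIB1 (-0.20 in PSN-1 and 1.12 in MIA PaCa-2) were also lower in PSN-1. Whether the lines differ was not tested.

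Of the other AP-1 family genes 7 of 11 were higher in PSN-1, with JUND (mimic 143 against scramble 59.8 FPKM, 1.24) and the stress-induced ATF3 (mimic 99.7 against scramble 41.7 FPKM, 1.24) past 2-fold, and 8 of 10 in MIA PaCa-2, with MAFF, a small MAF protein gene (1.02), past 2-fold. JUND (0.80) and ATF3 (0.92) were also higher in MIA PaCa-2, and MAFF had a change of 0.22 in PSN-1. The medians of this list were 0.078 for PSN-1 and 0.40 for MIA PaCa-2, where those of all genes were -0.016 and 0.014. Of the EGR and NR4A relatives and partners, among them the EGR corepressors NAB1 and NAB2 and the NR4A partners of the RXR group, 2 of 6 were higher in PSN-1 and 3 of 7 in MIA PaCa-2. EGR4, the remaining EGR gene, was past 2-fold in MIA PaCa-2, with 5.05 FPKM in the mimic and 1.67 FPKM in the scramble library (1.18). In PSN-1 it was at 6.84 (mimic) against 3.02 FPKM (scramble), a change of 0.96. Of the upstream genes, which encode SRF, ELK and CREB factors and their kinases, none passed 2-fold in either line, with 18 of 28 higher in PSN-1 (median 0.053) and 15 of 26 higher in MIA PaCa-2 (median 0.051).

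Of genes known as AP-1 targets, 12 of 18 measured in PSN-1 were higher, 2 past 2-fold, with a median of 0.21 (all genes 47.6%, 0.850% and -0.016), and 12 of 14 in MIA PaCa-2, 4 past 2-fold, with a median of 0.52 (all genes 52.2%, 1.31% and 0.014). The chemokine gene CXCL8 was past 2-fold in both lines (1.02 for PSN-1 and 2.74 for MIA PaCa-2). IL11, a cytokine gene, was at 7.18 (mimic) against 2.69 FPKM (scramble) in PSN-1 (1.15), with a change of 0.11 in MIA PaCa-2. HMOX1, the heme-degrading enzyme (0.85 for PSN-1 and 2.56 for MIA PaCa-2), was higher past 2-fold in MIA PaCa-2. So were PLAU, which encodes urokinase (0.23 for PSN-1 and 1.08 for MIA PaCa-2), and the cytokine gene LIF (-0.49 for PSN-1 and 1.53 for MIA PaCa-2). Of EGR1 target genes 3 of 9 were higher in PSN-1 (median -0.21) and 2 of 5 were higher in MIA PaCa-2 (median -0.043). PDGFA, a growth factor gene of that list, was lower past 2-fold in both lines (0.777% of all genes in PSN-1 and 0.810% in MIA PaCa-2), at 2.46 (mimic) against 6.98 FPKM (scramble) in PSN-1 (-1.21) and 3.19 (mimic) against 8.55 FPKM (scramble) in MIA PaCa-2 (-1.19).

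In the annotation, FOSB and JUNB overlap the opposite-strand genes ERCC1 and HOOK2, and EGR3 and NR4A1 each overlap an opposite-strand gene of unknown function. The libraries were made with a stranded kit, but the sources used here do not give the strand setting of the counting, so reads of such partners may be included in these 4 members.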

How the data were processed

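RNA of 4 libraries, 1 for each combination of line and oligonucleotide, was sequenced after TruSeq stranded mRNA preparation, per the labels' protocols. The authors deposited 1 FPKM value for each gene symbol, as stated per the file headers. TopHat2 2.1.1, Cuffdiff 2.2.1 and hg19 are named, with no role, per the submitters' processing notes, and the sources used here do not give the annotation or any further scaling. Because FPKM is by definition relative to the library total, abundant genes can shift the values of others.

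Changes used a pseudocount of 1 and genes of at least 1 FPKM on average over a line's libraries. Limma 3.58.1 in R 4.3.3 (eBayes with trend, two-sided, Benjamini-Hochberg over all genes fitted) was used for the effect shared by both lines (line as a block, mean of at least 1 FPKM in each line) and for PSN-1 over MIA PaCa-2 (oligonucleotide as a block, mean of at least 1 FPKM over 4 libraries). It was also run on simulated data with equal noise for every gene, which does not show how often it misses or falsely calls genes in these data. Fragments per FPKM were estimated from single-transcript genes of at least 1000 bases under 0.3 FPKM, assuming fragments of 200 bases, with the longest coding transcript as a member's length. Sequences came from RefSeq tables (GRCh38.p14) and GENCODE release 29 (GRCh38), joined by symbol, as neither is of the build hg19. Python 3.11.15 with numpy 2.4.6, scipy 1.17.1 and pandas 2.3.3 did the other computations.

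The members and gene lists were chosen with earlier results of these data known. Named genes were all members, in each list the genes past 2-fold in either line (at most 4 per list and line, with 1 gene of the AP-1 target list not reported here and left out of its counts), and the 5 genes nearest in pattern, short non-coding genes left out. Alternatives were the pseudocount, filter, scaling, trend, block, fold threshold and, between lines, leaving out each library.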

Additional observations from a re-analysis of the deposited data

Results flagged for a closer look

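Some genes had opposite signs of change in the 2 lines, which was not tested because each group has 1 library. Among the members, FOS (1.15 in PSN-1 and -0.44 in MIA PaCa-2) differed by 1.59 on the log2(FPKM + 1) scale, PSN-1 minus MIA PaCa-2, and NR4A1 (1.77 and -0.019) by 1.79, where the MIA PaCa-2 change is within its counting error of 0.047. NR4A3 differed by 1.43. The difference ran the other way for ZFP36L1 (-2.06), LIF (-2.02), KLF2 (-1.75) and TRIB1 (-1.32).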

How the results depend on the processing

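With 1 library per group, nothing within a line could be tested, and counting is the only error known. The members past 2-fold stayed within 1.5 times their number under each alternative: 5 to 7 higher in PSN-1, 2 or 3 higher in MIA PaCa-2 and 0 lower in both, with 7 in PSN-1 at the 1.5-fold threshold. For the shared mimic effect, limma's 6 higher and 1 lower genes became 27 and 21 with median-ratio scaling and 13 and 9 with the same summed FPKM. They became 0 and 0 without the filter (705 and 628 at an unadjusted p under 0.05) and 0 and 0 without the line block (28 and 26). The 1 lower gene became 2 with the filter of 5 FPKM, 5 with short non-coding genes left out and 0 without the trend (513 at an unadjusted p under 0.05). Between the lines, 3624 higher and 3388 lower genes became 0 and 0 without the filter (4399 and 3404 at an unadjusted p under 0.05), and 1594 to 2638 higher and 882 to 2097 lower with 1 library left out. Leaving out 1 library turned the sign for EGR1 (-0.18 to 0.56), EGR3 (-0.75 to 1.13), FOS (-0.52 to 0.63) and NR4A1 (-0.82 to 0.95), none of them called with all 4 libraries. Those fits had no oligonucleotide block, so a lone mimic or scramble library was compared with both libraries of the other line. The difference between the lines then includes any difference between mimic and scramble. The cause of the moves in gene counts was not tested. The labels carry no replicate numbers, and the only pairing was by line, used as the block for the shared mimic effect.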
